A study of Homo sapiens with 5 samples.

Results

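The collagen family was described in human melanocytic cells in which BPTF, the largest subunit of the NURF chromatin-remodelling complex, had been targeted by lentiviral shRNA. Members were the protein-coding genes whose symbol in the GENCODE 29 annotation has the form COL, a number, A and a number. This gave 44 genes among 40263 genes listed in at least 1 library, and all 44 were listed in the 501Mel libraries and 43 in the Hermes 3A libraries. RNA-seq read counts were available for 2 replicates of 501Mel shBPTF, a melanoma line that expresses MITF, a transcription factor central to melanocyte identity, and for 3 replicates of Hermes 3A shBPTF, an untransformed immortalised human melanocyte line. Each group is a single cell line infected with shBPTF lentivirus and selected with puromycin. The study used 2 shBPTF constructs, and the labels do not say which of them a library carries. No shControl library was analysed here, so that every comparison below is between the lines after shBPTF and none gives the effect of BPTF silencing. Hermes 3A medium contained TPA, cholera toxin, stem cell factor and endothelin-1 and the medium of 501Mel cells did not, so that the line, its transformation and its medium cannot be told apart. The labels do not say whether replicates were separate cultures, and the p-values measure only the spread between these libraries, which may be technical.

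Collagens are extracellular matrix proteins built from 3 chains wound into a triple helix. Each gene encodes 1 chain, and many types are heterotrimers that need chains from different genes, so that the levels of partner chains are read together. Fibrillar collagens form the fibres of dermis, bone and cartilage, type IV collagens form the network of basement membranes, on which epidermal melanocytes rest, FACIT collagens sit on the surface of fibrils, and multiplexins and transmembrane collagens are found at basement membranes and on cells.

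The libraries held 30073071 to 43032311 counts. At these depths 3 counts, the limit that a count of 0 allows, correspond to 0.0697 to 0.0998 CPM (counts scaled to a library total of 1000000), and this limit covers counting error only. The targeted gene, BPTF, was at 65.8 and 57.8 CPM in 501Mel cells and at 45.8, 51.6 and 54.1 CPM in Hermes 3A cells, which without shControl libraries is no check of the silencing. MITF was at 702 and 854 CPM in 501Mel cells and at 643, 674 and 678 CPM in Hermes 3A cells. The summed level of 7 melanocyte markers was 12718 and 19661 CPM in 501Mel cells and 31650.5 to 32728 CPM in Hermes 3A cells. DCT, an enzyme of melanin synthesis, was at 1068 and 1300.3 CPM in the former and 7.37, 8.83 and 13.1 CPM in the latter. MITF and DCT were higher in both 501Mel libraries, and the other 5 markers higher in every Hermes 3A library. Most of the sum was PMEL and TYRP1, at means of 6669 and 6115 CPM in 501Mel cells and 16834 and 11954 CPM in Hermes 3A cells. For a pairwise comparison of replicates a small constant was added to each CPM, which shrinks the ratios of low genes. On this scale 4.92% of the genes tested differed by more than 2-fold between the 501Mel libraries. For Hermes 3A, replicate 1 differed from replicates 2 and 3 in this way at 7.21% and 6.97% of the genes, and replicates 2 and 3 from each other at 1.21%. The 4-fold shares given below use CPM without this constant and cannot be set beside these shares.

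Collagen transcripts were more abundant in Hermes 3A cells than in 501Mel cells, and the lines used different members of the family. The summed collagen level was 311 and 84.9 CPM in the 501Mel libraries and 2151, 1802 and 1833 CPM in the Hermes 3A libraries. Every Hermes 3A library lay above both 501Mel libraries, and the 501Mel libraries differed between themselves more than the Hermes 3A libraries did. No test was made on this sum. In Hermes 3A cells type IV collagens made up 65.5, 39.5 and 44.5% of the collagen CPM in replicates 1, 2 and 3. Fibrillar collagens made up 21.2 to 34.1% there. In 501Mel cells FACIT collagens made up 41.1 to 50.7% and fibrillar collagens 31.2 to 35.0%, while type IV collagens made up 0.463 to 0.996%. These CPM are not divided by length and weigh long transcripts more. In bulk RNA, fewer cells that express a gene and less of its RNA per cell cannot be told apart.

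**Figure D1:**
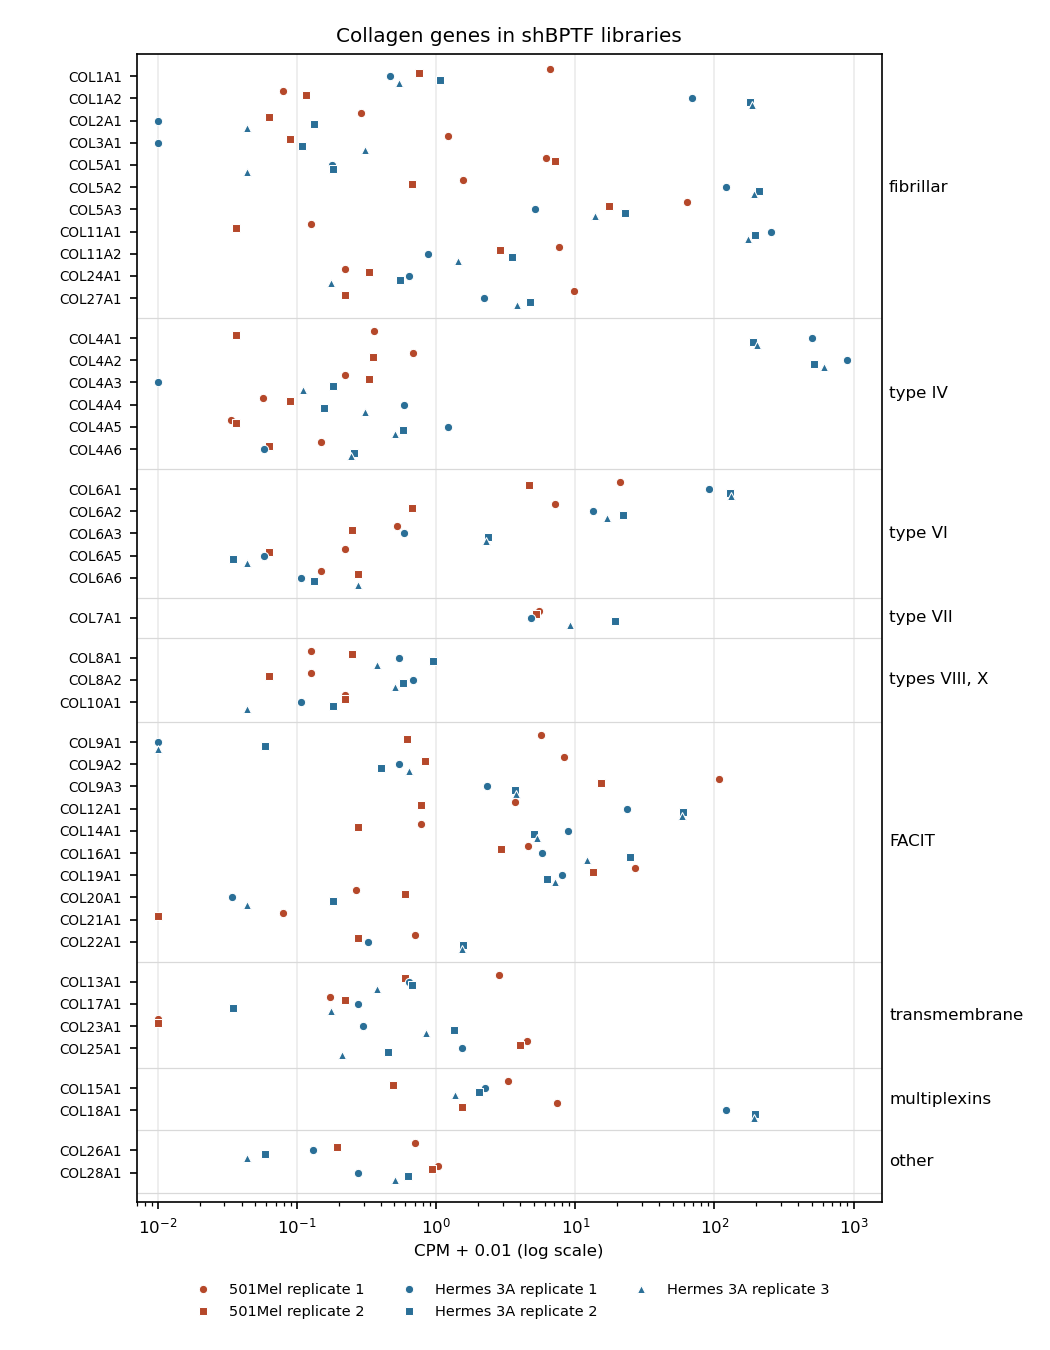
Level of each collagen gene as CPM + 0.01 on a log axis, by collagen class, with 1 symbol per library (circle, square and triangle for replicates 1, 2 and 3; red for 501Mel, blue for Hermes 3A). COL4A1, COL4A2, COL1A2, COL5A2 and COL11A1 lie far higher in the Hermes 3A libraries, and COL5A1, COL9A1 and COL9A3 higher in the 501Mel libraries. COL21A1 has 501Mel values only.

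Of the 44 collagens, 36 had enough counts to be tested. The other 8, COL2A1, COL4A3, COL4A6, COL6A5, COL10A1, COL17A1, COL21A1 and COL26A1, had at most 30 counts in any library. A gene was called when its edgeR adjusted p, corrected over all 18386 genes tested, was under 0.05 and its difference at least 2-fold. By this rule 23 of the 36 were called, 7 higher in 501Mel cells and 16 higher in Hermes 3A cells. Among all genes tested 36.1% were called, 17.9% higher in 501Mel cells and 18.2% higher in Hermes 3A cells. Each tested collagen was listed in all 5 libraries. Over the 17918 tested genes listed in this way 34.5% were called, with 17.1% higher in Hermes 3A cells. Of the called collagens 15 differed by at least 8-fold, against 14.3% of all genes tested that were called and differed by this much. The median log2 fold change, 501Mel over Hermes 3A, was -1.17 over the 36 collagens and 0.01 over all genes tested. A collagen that passed the filter on counts only through the line in which it is high had to differ, and the share of called members is therefore a description. For 17 collagens every Hermes 3A library was above both 501Mel libraries, for 8 the reverse held and for 11 the lines overlapped. Over all genes tested the lines did not overlap for 70.7%, with Hermes 3A higher for 32.6% and 501Mel higher for 38.1%.

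**Figure D2:**
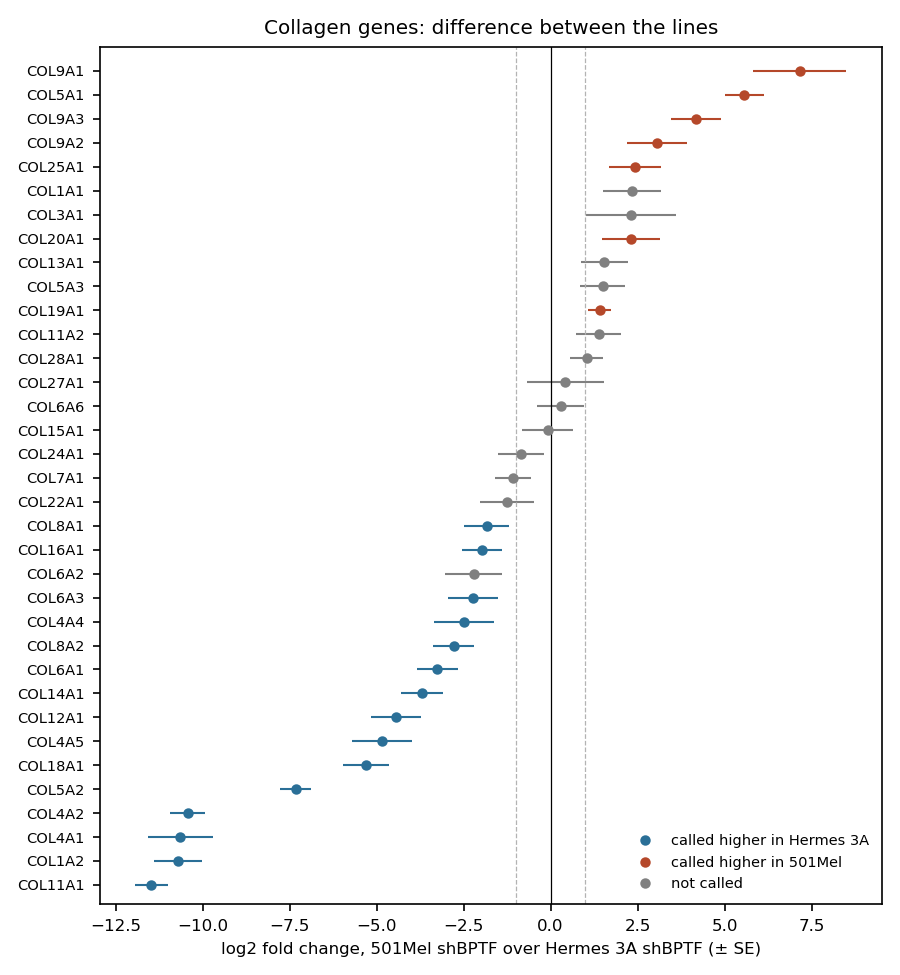
Log2 fold change of 501Mel shBPTF over Hermes 3A shBPTF for 35 tested collagens, with the standard error as a bar and the 2-fold limits as dashed lines. COL23A1 is not drawn because it had no count in 501Mel cells. The values run from -11.47 for COL11A1 to 7.17 for COL9A1.

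The type IV chains COL4A1 and COL4A2, which together form the common network of basement membranes, had the highest mean CPM of the family in Hermes 3A cells and were nearly without counts in 501Mel cells. In Hermes 3A replicate 2, COL4A1 at 191 CPM was below COL5A2, COL18A1 and COL11A1, at 207, 196 and 194 CPM. The genes of COL4A1 and COL4A2 lie head to head on chromosome 13 on opposite strands with 126 bases between the RefSeq start sites (GRCh38.p14). This shared segment is shown because both genes start at its ends. It lies at chr13:110307158-110307283, is printed on the plus strand, on which COL4A2 is read, and capitals mark the matches to the CCAAT box and the GC box (GGGCGG) on either strand.
COL4A1/COL4A2: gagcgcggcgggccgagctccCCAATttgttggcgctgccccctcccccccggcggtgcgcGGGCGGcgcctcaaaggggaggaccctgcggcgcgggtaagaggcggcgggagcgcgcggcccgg
The segment was 80.2% G and C, with 20 CpG dinucleotides, 1 CCAAT match and 1 GC box match.

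COL4A1 was at 0.349 and 0.0264 CPM in the 501Mel libraries and 504, 191 and 202 CPM in the Hermes 3A libraries. Both 501Mel values rest on 15 and 1 counts, and the Hermes 3A libraries were all far above them, with replicate 1 the highest. The log2 fold change of COL4A1 was -10.64 ± 0.93 (SE), edgeR adjusted p = 0.000216. COL4A2 was at 0.674 and 0.343 CPM in the 501Mel libraries and 903, 520.0 and 611 CPM in the Hermes 3A libraries, with replicate 1 again the highest. For COL4A2 the difference was -10.43 ± 0.51 (SE), edgeR adjusted p = 2.63e-05. Levels of different genes were set beside each other per kb of exon, with all annotated exons of a gene as its length. On this scale COL4A2 exceeded COL4A1 by ratios of 1.37, 2.08 and 2.31 in the Hermes 3A libraries. With the longest transcript as the length these ratios were 1.83, 2.78 and 3.08. The per kb ratios of other chains below use all annotated exons and depend on this choice too. COL4A2 was the higher of the pair in each of the 5 libraries, although in 501Mel replicate 2 the ratio rests on 13 and 1 counts.

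The tissue-restricted type IV chains were much less abundant. COL4A5, a chain of kidney and skin basement membranes, had 1 and 1 counts in 501Mel cells and 50, 23 and 15 counts in Hermes 3A cells. Over the libraries its level was 31.6 times higher in Hermes 3A cells, with a 95% counting interval from 8.50 to 265 (edgeR adjusted p = 0.00316). COL4A4, which joins COL4A3 and COL4A5 in the basement membrane of the glomerulus, had 2 and 3 counts in 501Mel cells and 24, 6 and 9 counts in Hermes 3A cells. It was called higher in Hermes 3A cells (log2 fold change -2.49 ± 0.87 (SE), edgeR adjusted p = 0.0439). The call was lost with DESeq2, with the replicate number as a block and without either 501Mel library. Only 9 of the 12 alternative fits tested COL4A4. It had too few counts without Hermes 3A replicate 1 or 3 and with a stricter filter. COL4A3 and COL4A6 were among the genes not tested, with at most 12 counts in a library. These genes form head-to-head pairs too, COL4A4 with COL4A3 and COL4A6 with COL4A5, with 418 and 379 bases between the RefSeq starts. Within each of these pairs 1 gene was called and its partner had too few counts to test.

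Among the fibrillar collagens the lines differed in which chains they transcribed. Hermes 3A cells were higher for COL1A2, COL5A2 and COL11A1, and 501Mel cells were higher for COL5A1, while the other 6 of 10 tested members were not called. COL1A2 encodes the second chain of type I collagen, the main collagen of dermis and bone. It was at 0.0697 and 0.106 CPM in the 501Mel libraries and 69.5, 180.1 and 187 CPM in the Hermes 3A libraries. The 501Mel values rest on 3 and 4 counts, and the lowest of the Hermes 3A libraries was replicate 1 (log2 fold change -10.71 ± 0.70 (SE), edgeR adjusted p = 7.05e-05). COL1A1, which encodes the chain present in 2 copies in each type I trimer, was at 6.53 and 0.740 CPM in the 501Mel libraries and 0.456, 1.05 and 0.532 CPM in the Hermes 3A libraries. COL1A1 was not called (log2 fold change 2.35 ± 0.83 (SE), edgeR adjusted p = 0.0509), and 501Mel replicate 2 lay within the range of the Hermes 3A libraries. The difference was 3.17 and called without that library, and 0.08 and not called without 501Mel replicate 1. COL1A1 was also called with DESeq2, with other size factors, without TMM and with no filter on low counts. In Hermes 3A cells COL1A2 exceeded its partner, with per kb ratios of 134, 151 and 309.8, and in 501Mel cells the ratios were 0.00940 and 0.126.

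Type V and type XI collagens nucleate fibrils and can share chains. COL5A1, the chain common to most type V trimers, was at 6.13 and 7.08 CPM in the 501Mel libraries and 0.168, 0.171 and 0.0333 CPM in the Hermes 3A libraries. The 2 501Mel libraries were close to each other, and each Hermes 3A library held at most 7 counts (log2 fold change 5.57 ± 0.56 (SE), edgeR adjusted p = 0.000358). COL5A2, its usual partner, showed the opposite order at 1.56 and 0.660 CPM in the 501Mel libraries and 121, 207 and 191 CPM in the Hermes 3A libraries. All Hermes 3A libraries were above both 501Mel libraries (log2 fold change -7.33 ± 0.44 (SE), edgeR adjusted p = 5.63e-05). The per kb ratio of COL5A2 to COL5A1 was 0.381 and 0.140 in the 501Mel libraries. It was 1080.1, 1816 and 8629 in the Hermes 3A libraries, where the last value rests on 1 count of COL5A1. COL5A3, another type V chain, was the fibrillar collagen with the highest level in 501Mel cells, at 63.6 and 17.6 CPM in the 501Mel libraries and 5.11, 22.7 and 13.8 CPM in the Hermes 3A libraries. Its lines overlapped, since 501Mel replicate 2 lay below Hermes 3A replicate 2, and it was not called (1.50 ± 0.65 (SE), edgeR adjusted p = 0.0928). It was called with DESeq2, with no filter on low counts and without 501Mel replicate 2, where it was 2.13. Without 501Mel replicate 1 it was 0.31.

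COL11A1, a chain of type XI collagen that is typical of cartilage, showed the largest fitted difference of the family. It was at 0.116 and 0.0264 CPM in the 501Mel libraries and 257, 194 and 174 CPM in the Hermes 3A libraries. The 501Mel values rest on 5 and 1 counts, and every Hermes 3A library held at least 5246 (log2 fold change -11.47 ± 0.47 (SE), edgeR adjusted p = 1.80e-05). This SE is smaller than the counting error of so few 501Mel counts, and the size of the difference is less certain than it states. COL11A2, its partner in type XI trimers, was at 7.58 and 2.85 CPM in the 501Mel libraries and 0.864, 3.50 and 1.43 CPM in the Hermes 3A libraries and was not called (1.38 ± 0.64 (SE), edgeR adjusted p = 0.112). It was 0.53 without 501Mel replicate 1, and 2.05 and called without Hermes 3A replicate 2. In Hermes 3A cells the per kb ratio of COL11A1 to COL11A2 was 220.2, 41.2 and 90.4. COL5A2 and COL11A1, which can occur in mixed type V and type XI trimers, were by contrast at per kb ratios of 0.574, 1.30 and 1.34 in Hermes 3A cells.

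The 250 bases upstream of the RefSeq starts of COL11A1 and COL5A1 are shown because these genes are the fibrillar members with the largest called difference in each direction. The COL11A1 stretch is chr1:103108523-103108772 and the COL5A1 stretch chr9:134641553-134641802 (GRCh38.p14). Each is printed on the strand of its gene, minus for COL11A1 and plus for COL5A1, with the same matches in capitals.
COL11A1: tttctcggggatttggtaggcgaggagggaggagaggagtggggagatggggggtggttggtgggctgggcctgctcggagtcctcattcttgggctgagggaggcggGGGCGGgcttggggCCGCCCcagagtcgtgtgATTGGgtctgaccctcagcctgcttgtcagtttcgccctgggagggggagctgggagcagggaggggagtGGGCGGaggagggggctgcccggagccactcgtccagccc
COL5A1: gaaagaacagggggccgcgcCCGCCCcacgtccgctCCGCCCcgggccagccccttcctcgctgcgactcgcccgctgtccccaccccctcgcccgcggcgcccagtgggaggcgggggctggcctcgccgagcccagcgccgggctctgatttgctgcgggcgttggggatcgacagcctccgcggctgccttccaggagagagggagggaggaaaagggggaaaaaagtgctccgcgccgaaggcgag
COL11A1 had 1 CCAAT and 3 GC box matches with 11 CpG dinucleotides, and COL5A1 had no CCAAT match, 2 GC box matches and 29 CpG dinucleotides. The E-boxes CACGTG and CATGTG, letters that MITF can bind, and the TATA box TATAAA were not in these windows or in the COL4A1/COL4A2 segment. Promoter entries were matched for 32 of the 44 collagens, as 44 windows. Over these windows CACGTG was found in 0 and CATGTG in 2, and among all 35116 promoter windows of the same length on either strand in 6.35% and 9.42%. CCAAT was found in 12 collagen windows, or 27.3%, against 32.0% of all windows, and GGGCGG in 24, or 54.5%, against 42.6%. TATAAA was found in 8, or 18.2%, against 10.7%. These are matches of letters and no measurement of binding.

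**Figure D3:**
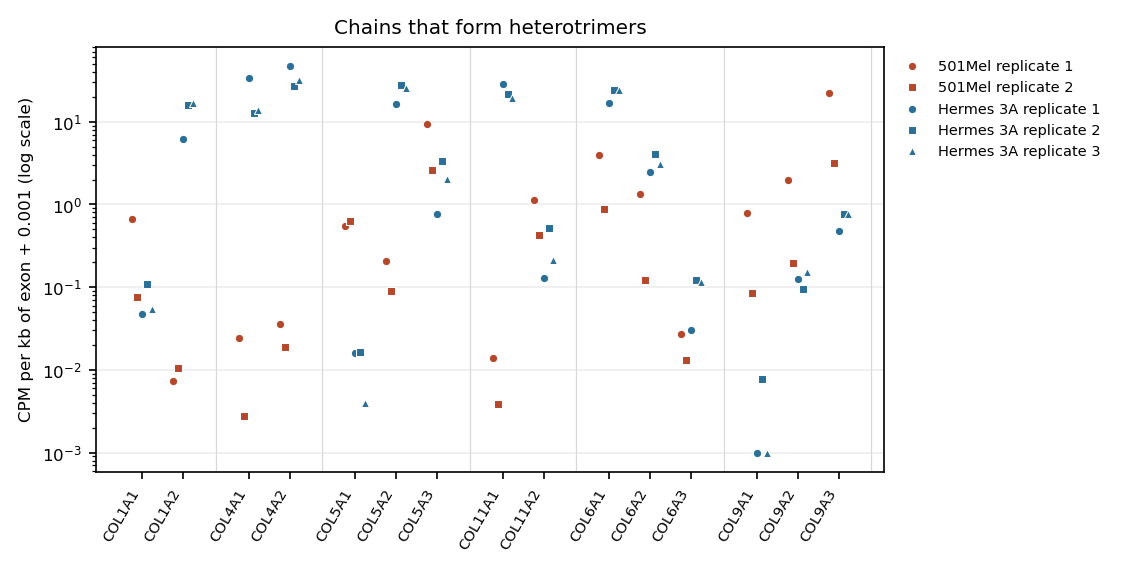
Level of the chains of 6 heterotrimer sets as CPM per kb of exon + 0.001 on a log axis, with 1 symbol per library. COL1A2, COL5A2 and COL11A1 lie far above their partners COL1A1, COL5A1 and COL11A2 in the Hermes 3A libraries, while COL4A1 and COL4A2 lie close together there.

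The remaining fibrillar genes were low or varied between replicates. COL3A1, the chain of type III collagen, had 52 and 3 counts in 501Mel cells and 0, 4 and 9 counts in Hermes 3A cells and was not called. COL27A1 had 421 and 8 counts in 501Mel cells and 92 to 192 in Hermes 3A cells, a log2 fold change of 0.42 ± 1.10 (SE), edgeR adjusted p = 0.770. Without 501Mel replicate 1 its difference turned to -4.09 and was called higher in Hermes 3A cells, and without 501Mel replicate 2 it was 1.38 and called higher in 501Mel cells. COL24A1 was at means of 0.263 CPM in 501Mel cells and 0.443 CPM in Hermes 3A cells and was not called.

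Type VI collagen, which forms beaded filaments around cells, was higher in Hermes 3A cells for the chain with the highest level. COL6A1 was at 20.9 and 4.65 CPM in the 501Mel libraries and 91.0, 128 and 131 CPM in the Hermes 3A libraries. Every Hermes 3A library was above both 501Mel libraries (log2 fold change -3.26 ± 0.59 (SE), edgeR adjusted p = 0.00380). COL6A2 was at 7.16 and 0.660 CPM in the 501Mel libraries and 13.3, 22.0 and 16.8 CPM in the Hermes 3A libraries. Its lines did not overlap, and the difference missed the threshold (-2.21 ± 0.82 (SE), edgeR adjusted p = 0.0593). It passed when either 501Mel library was left out, at -4.75 without replicate 1 and -1.36 without replicate 2. COL6A3, the longest chain of the trimer, was at 0.511 and 0.238 CPM in 501Mel cells against 0.576, 2.35 and 2.26 CPM in Hermes 3A cells (log2 fold change -2.23 ± 0.73 (SE), edgeR adjusted p = 0.0371). The call of COL6A3 was lost without either 501Mel library and without Hermes 3A replicates 2 or 3. Per kb COL6A1 exceeded COL6A2 by 6.90, 5.89 and 7.84 and COL6A3 by 581, 201 and 212 in the Hermes 3A libraries. With the longest transcript as the length the ratios to COL6A3 were 401, 139 and 147. COL6A6 was not called, at means of 0.202 and 0.161 CPM.

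Type IX collagen, a FACIT heterotrimer best known on the surface of cartilage fibrils, was higher in 501Mel cells for all 3 of its chains. COL9A3 was at 107 and 15.4 CPM in the 501Mel libraries and 2.30, 3.70 and 3.72 CPM in the Hermes 3A libraries. The 501Mel libraries differed 6.96-fold between themselves and both were above every Hermes 3A library (log2 fold change 4.17 ± 0.71 (SE), edgeR adjusted p = 0.00305). When 1 library was left out, the log2 fold change of COL9A3 ran from 2.20 to 4.96. The exons of COL9A3 overlap TCFL5 on the opposite strand, a gene with 2828 and 3894 counts in 501Mel cells and 1829 to 2070 in Hermes 3A cells, and its part in the COL9A3 counts was not tested. COL9A2 was at 8.27 and 0.819 CPM in the 501Mel libraries and 0.528, 0.392 and 0.632 CPM in the Hermes 3A libraries, and 501Mel replicate 2 was only slightly above the Hermes 3A libraries. The log2 fold change of COL9A2 was 3.06 ± 0.86 (SE), edgeR adjusted p = 0.0215, and without 501Mel replicate 1 it was 0.61 and not called. The call was also lost without any 1 of the Hermes 3A libraries, at values from 2.82 to 3.16. COL9A1 had 243 and 23 counts in 501Mel cells and 0, 2 and 0 counts in Hermes 3A cells. Its ratio over the libraries was 185, with a 95% counting interval from 50.7 to 1537 (edgeR adjusted p = 0.00377). This interval pools the libraries and does not cover the difference between the 501Mel replicates. When 1 library was left out, the log2 fold change of COL9A1 ran from 4.83 to 9.82. Per kb COL9A3 exceeded COL9A2 by 11.3 and 16.4 and COL9A1 by 28.4 and 37.8 in the 501Mel libraries. Replicate 1 exceeded replicate 2 for each chain, by 6.96, 10.1 and 9.29-fold for COL9A3, COL9A2 and COL9A1.

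Other FACIT collagens went both ways. COL12A1 and COL14A1, which bind the surface of type I fibrils, were higher in Hermes 3A cells. COL12A1 was at 3.65 and 0.766 CPM in 501Mel cells against 23.4, 59.1 and 57.9 CPM in Hermes 3A cells (log2 fold change -4.45 ± 0.72 (SE), edgeR adjusted p = 0.00248). COL14A1 was at 0.767 and 0.264 CPM in 501Mel cells against 8.91, 4.99 and 5.32 CPM in Hermes 3A cells (log2 fold change -3.70 ± 0.60 (SE), edgeR adjusted p = 0.00247). COL16A1 had means of 3.73 ± 1.17 CPM (SD, n = 2) in 501Mel cells and 14.2 ± 9.75 CPM (SD, n = 3) in Hermes 3A cells (log2 fold change -1.97 ± 0.59 (SE), edgeR adjusted p = 0.0275), and the call was lost without Hermes 3A replicate 2 and without either 501Mel library. COL19A1 was higher in 501Mel cells, at 26.9 and 13.3 CPM in 501Mel cells against 8.04, 6.26 and 7.12 CPM in Hermes 3A cells (log2 fold change 1.42 ± 0.33 (SE), edgeR adjusted p = 0.0103). Without 501Mel replicate 1 it was 0.84 and not called. An exon of COL19A1 overlaps LMBRD1 on the opposite strand, a gene with 1385 to 2214 counts in every library, and the strand setting of the counting is not given in the sources used here. COL20A1 was called higher in 501Mel cells at 11 and 22 counts against 1 to 7 (log2 fold change 2.30 ± 0.83 (SE), edgeR adjusted p = 0.0499), and lost its call with DESeq2, over the genes listed in all 5 libraries and without any 1 library other than Hermes 3A replicate 2. COL22A1 was not called, at means of 0.481 CPM in 501Mel cells and 1.13 CPM in Hermes 3A cells, except without Hermes 3A replicate 1, where it was -1.71.

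Of the multiplexins, basement membrane collagens of which COL18A1 is the source of endostatin, COL18A1 was higher in Hermes 3A cells and COL15A1 was not called. COL18A1 was at 7.32 and 1.53 CPM in the 501Mel libraries and 120.3, 196 and 194 CPM in the Hermes 3A libraries. All Hermes 3A libraries lay above both 501Mel libraries (log2 fold change -5.32 ± 0.66 (SE), edgeR adjusted p = 0.000850). COL18A1 overlaps SLC19A1 on the opposite strand, a gene with 760 to 1689 counts in the libraries and fewer of them in Hermes 3A cells. COL15A1 was at 3.25 and 0.475 CPM in 501Mel cells against 2.23, 2.03 and 1.36 CPM in Hermes 3A cells, a log2 fold change of -0.09 ± 0.73 (SE), edgeR adjusted p = 0.932. Without 501Mel replicate 1 it was -2.03 and passed the test.

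Among the transmembrane collagens, COL23A1 had 0 counts in both 501Mel libraries and 12, 54 and 25 in Hermes 3A cells. Against the 3 counts that 0 allows over the 501Mel group its level was 21.8-fold higher in Hermes 3A cells, a value that leaves out the counting error of the Hermes 3A counts. The lower limit of its exact 95% counting interval, which includes that error, was 17.4-fold (edgeR adjusted p = 0.00530). COL25A1, which is best known from amyloid deposits of the brain, was higher in 501Mel cells at 4.49 and 3.96 CPM in 501Mel cells against 1.51, 0.440 and 0.200 CPM in Hermes 3A cells (log2 fold change 2.44 ± 0.75 (SE), edgeR adjusted p = 0.0305). Hermes 3A replicate 1 was 7.58-fold above replicate 3, and the call was lost without Hermes 3A replicates 2 or 3 and without either 501Mel library. COL13A1, at means of 1.71 CPM in 501Mel cells and 0.550 CPM in Hermes 3A cells, was not called (log2 fold change 1.55 ± 0.68 (SE), edgeR adjusted p = 0.0946). Its 501Mel libraries were at 2.84 and 0.581 CPM, and the difference was 0.01 without 501Mel replicate 1 and 2.25, and called, without replicate 2.

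The short-chain collagens COL8A1 and COL8A2, which form the network of Descemet's membrane and vessel walls, were both called higher in Hermes 3A cells and were low. COL8A1 had 5 and 9 counts in 501Mel cells and 22, 38 and 11 counts in Hermes 3A cells (log2 fold change -1.84 ± 0.64 (SE), edgeR adjusted p = 0.0450). COL8A2 had 5 and 2 counts in 501Mel cells and 28, 23 and 15 counts in Hermes 3A cells (log2 fold change -2.78 ± 0.60 (SE), edgeR adjusted p = 0.00698). The call of COL8A1 was lost with DESeq2, without TMM, without either 501Mel library and without Hermes 3A replicate 2, and that of COL8A2 without 501Mel replicate 2. COL7A1, the collagen of the anchoring fibrils below the epidermis, was at 5.51 and 5.20 CPM in 501Mel cells against 4.75, 19.1 and 9.18 CPM in Hermes 3A cells. Its Hermes 3A libraries spread 4.03-fold and overlapped the 501Mel libraries, and it was not called (-1.08 ± 0.53 (SE), edgeR adjusted p = 0.127). It was -1.45 and called higher in Hermes 3A cells without Hermes 3A replicate 1, and -0.50 without Hermes 3A replicate 2. COL28A1 was at means of 0.974 CPM in 501Mel cells and 0.458 CPM in Hermes 3A cells and was not called, although both 501Mel libraries were above every Hermes 3A library.

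The order of the levels per kb of exon differed between the lines. In Hermes 3A cells COL4A2 came first at a mean of 35.1 CPM per kb, with 46.8, 27.0 and 31.7 in the libraries. It was followed by COL5A2 at 23.2, COL11A1 at 22.9, COL6A1 at 21.8, COL4A1 at 20.3 and COL18A1 at 19.9 CPM per kb. These 5 means lay within the spread of the Hermes 3A libraries of COL4A1, from 12.9 to 34.2 CPM per kb, and their order cannot be read. With the longest transcript as the length, COL4A2 still came first, followed by COL4A1. In 501Mel cells COL9A3 came first at 22.1 and 3.18 CPM per kb in the 2 libraries, then COL5A3 at 9.43 and 2.60. COL6A1, COL19A1 and COL9A2 followed with means of 2.39, 2.36 and 1.08 CPM per kb. All neighbours in the 501Mel order overlapped when values were compared across the 2 libraries. Within each library COL9A3 was above COL5A3, COL5A3 above COL6A1 and COL19A1, and both of these above COL9A2. The place of COL9A2 rests on replicate 1, at 1.96 CPM per kb. In replicate 2 it was at 0.194, below COL5A1, COL7A1 and COL25A1 at 0.633, 0.470 and 0.453, among others. COL6A1 and COL19A1 changed places, at 3.91 and 3.16 CPM per kb in replicate 1 and 0.870 and 1.56 in replicate 2.

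The 501Mel replicates stood further apart for collagens than for most genes. In 14 of the 36 tested collagens replicate 1 was more than 4-fold above replicate 2, and in 0 the reverse held, while over all genes tested the shares were 3.4% and 1.02%. Replicate 1 was higher for 27 of the 36 collagens and for 9582 of the 18386 genes tested. The median ratio of replicate 1 to replicate 2 was 2.64 over the collagens and 1.03 over all genes tested. The largest ratio was 46.3, for COL27A1. COL5A1, COL7A1, COL25A1 and COL28A1 were close in the 2 libraries, with ratios of 0.867, 1.06, 1.13 and 1.11. In the same libraries all 7 melanocyte markers were lower in replicate 1, with a median ratio of 0.649. The 7 fibroblast markers reached a sum of 13.9 CPM in replicate 1 against 4.17 CPM in replicate 2, with 5 of the 6 tested markers higher in replicate 1. The part of either list in the collagen values was not tested. In Hermes 3A cells the highest library exceeded the lowest by more than 4-fold for 12 of the 36 collagens, against 9.61% of all genes tested.

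**Figure D4:**
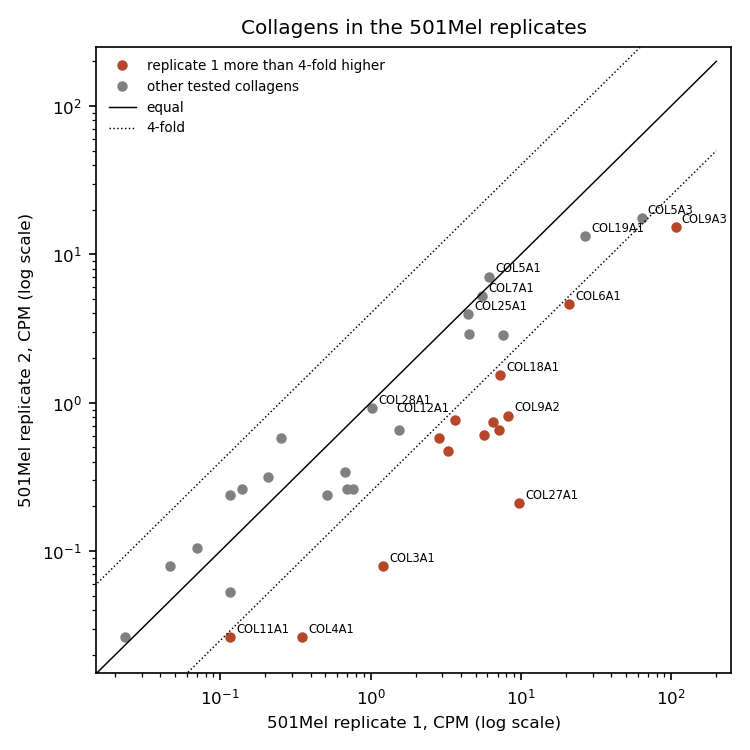
CPM of the tested collagens in 501Mel replicate 1 (x axis) and replicate 2 (y axis), both on log axes, with lines for equal levels and for 4-fold differences. Red points are the 14 collagens more than 4-fold higher in replicate 1, most of them labelled. COL23A1, at 0 in both, is not drawn.

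Several calls depended on single libraries. Without 501Mel replicate 1, 3 of the 7 collagens higher in 501Mel cells remained called, COL5A1, COL9A1 and COL9A3. Without Hermes 3A replicate 3, 4 were called. Over 12 alternative fits 14 of the 23 called collagens kept their call in every fit. These were COL5A1, COL9A1 and COL9A3, higher in 501Mel cells, and COL1A2, COL5A2, COL11A1, COL4A1, COL4A2, COL4A5, COL6A1, COL12A1, COL14A1, COL23A1 and COL18A1, higher in Hermes 3A cells. The other 9, of which 5 were higher in Hermes 3A cells, lost it in at least 1. With no filter on low counts, of the 36 tested collagens COL1A1, COL3A1, COL5A3, COL11A2 and COL13A1 were called higher in 501Mel cells too, and COL6A2 and COL7A1 higher in Hermes 3A cells. The 13 collagens then called higher in 501Mel cells also included a collagen that the main fit did not test.

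Because fibroblasts transcribe several of the same collagens, their markers were read beside the collagen values. The 7 markers summed to 13.9 and 4.17 CPM in 501Mel cells and to 208, 148 and 149 CPM in Hermes 3A cells. Nearly all of the Hermes 3A sum was FAP, a surface protease, at 194, 143 and 143 CPM. DCN, which encodes the abundant fibroblast proteoglycan decorin, was at 0.163 and 0.106 CPM in 501Mel cells and 0.0480, 0.0489 and 0.0333 CPM in Hermes 3A cells, near the level of 3 counts. LUM was at 8.34 and 2.32 CPM in 501Mel cells and 7.35, 1.13 and 0.964 CPM in Hermes 3A cells. THY1 was at 0.604 and 0.0264 CPM in 501Mel cells and 2.42, 1.05 and 1.16 CPM in Hermes 3A cells. Among the collagens that fibroblasts transcribe, COL1A1 and COL3A1 were at means of 0.680 and 0.132 CPM in Hermes 3A cells. COL1A2, COL5A2 and COL6A1 were at means of 146, 173 and 117 CPM there. Of 6 tested fibroblast markers FAP and TWIST2 were called, both higher in Hermes 3A cells, and the part of this list in the collagen values was not tested. Endothelial markers summed to 0.651 and 0.792 CPM in 501Mel cells and to 9.25 to 12.9 CPM in Hermes 3A cells, mostly KDR, and their part in the result was not tested. Leukocyte markers summed to at most 0.538 CPM in any library. Keratinocyte markers summed to 32.9 to 48.2 CPM, nearly all of it KRT10. KRT14, a defining keratin of basal keratinocytes, had 0 and 1 counts in the 501Mel libraries and was not listed for Hermes 3A cells. KRT5, KRT1 and the endothelial marker PECAM1 were listed in no library and have no value. TP63 was called higher in Hermes 3A cells, at means of 0.0729 CPM in 501Mel cells and 0.530 CPM in Hermes 3A cells (edgeR adjusted p = 0.00646). The part of the keratinocyte list in the result was not tested.

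Collagen chains are hydroxylated and glycosylated in the endoplasmic reticulum, folded by chaperones, trimmed by proteases outside the cell and cross-linked by lysyl oxidases. Of 37 genes for these steps 35 were tested, with 2 called higher in 501Mel cells and 11 higher in Hermes 3A cells, or 37.1% called against the background of 36.1%. Their median log2 fold change was -0.57. By step, 6 of 15 enzymes of hydroxylation and glycosylation, 1 of 9 folding and export genes, 3 of 6 tested procollagen proteases and enhancers and 1 of 5 lysyl oxidases were higher in Hermes 3A cells. COLGALT2, a collagen galactosyltransferase, and LOXL4, a lysyl oxidase, were the 2 higher in 501Mel cells, and each lost its call without 501Mel replicate 2.

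ADAMTS2 and ADAMTS3, the proteases that remove the N-terminal propeptide of procollagen, showed the largest differences of these genes. ADAMTS2 was at 0.116 and 0.396 CPM in 501Mel cells against 8.64, 18.1 and 25.9 CPM in Hermes 3A cells (log2 fold change -6.15 ± 0.72 (SE), edgeR adjusted p = 0.000667). ADAMTS3 was at 0.0697 and 0.0528 CPM in 501Mel cells against 6.84, 2.72 and 3.82 CPM in Hermes 3A cells (log2 fold change -6.19 ± 0.73 (SE), edgeR adjusted p = 0.000668). For both genes every Hermes 3A library lay above the 501Mel libraries. LOX, the founding lysyl oxidase, was at 1.63 and 2.11 CPM in 501Mel cells against 14.8, 7.66 and 7.35 CPM in Hermes 3A cells (log2 fold change -2.49 ± 0.46 (SE), edgeR adjusted p = 0.00409). LOXL4 went the other way on few reads, with 13 and 20 counts in 501Mel cells and 3, 2 and 0 counts in Hermes 3A cells (log2 fold change 3.09 ± 0.81 (SE), edgeR adjusted p = 0.0152). COLGALT2 was at 39.1 and 56.7 CPM in 501Mel cells against 13.0, 2.77 and 2.00 CPM in Hermes 3A cells (log2 fold change 2.91 ± 0.76 (SE), edgeR adjusted p = 0.0166).

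SERPINH1, which encodes the chaperone dedicated to the collagen triple helix, was at 36.5 and 30.7 CPM in the 501Mel libraries and 86.8, 104 and 143 CPM in the Hermes 3A libraries. The lines did not overlap (log2 fold change -1.79 ± 0.23 (SE), edgeR adjusted p = 0.000945). P4HB, the shared subunit of prolyl 4-hydroxylase, was at 461 and 538 CPM in 501Mel cells against 832, 904 and 1043 CPM in Hermes 3A cells and was under the 2-fold limit (-0.96 ± 0.18 (SE), edgeR adjusted p = 0.00434). It passed that limit without 501Mel replicate 2, Hermes 3A replicate 1 or Hermes 3A replicate 2, at -1.10, -1.02 and -1.04. The difference was 3.45-fold for SERPINH1 and 1.94-fold for P4HB, beside summed collagen means of 198 ± 160 CPM (SD, n = 2) in 501Mel cells and 1929 ± 193 CPM (SD, n = 3) in Hermes 3A cells.

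**Figure D5:**
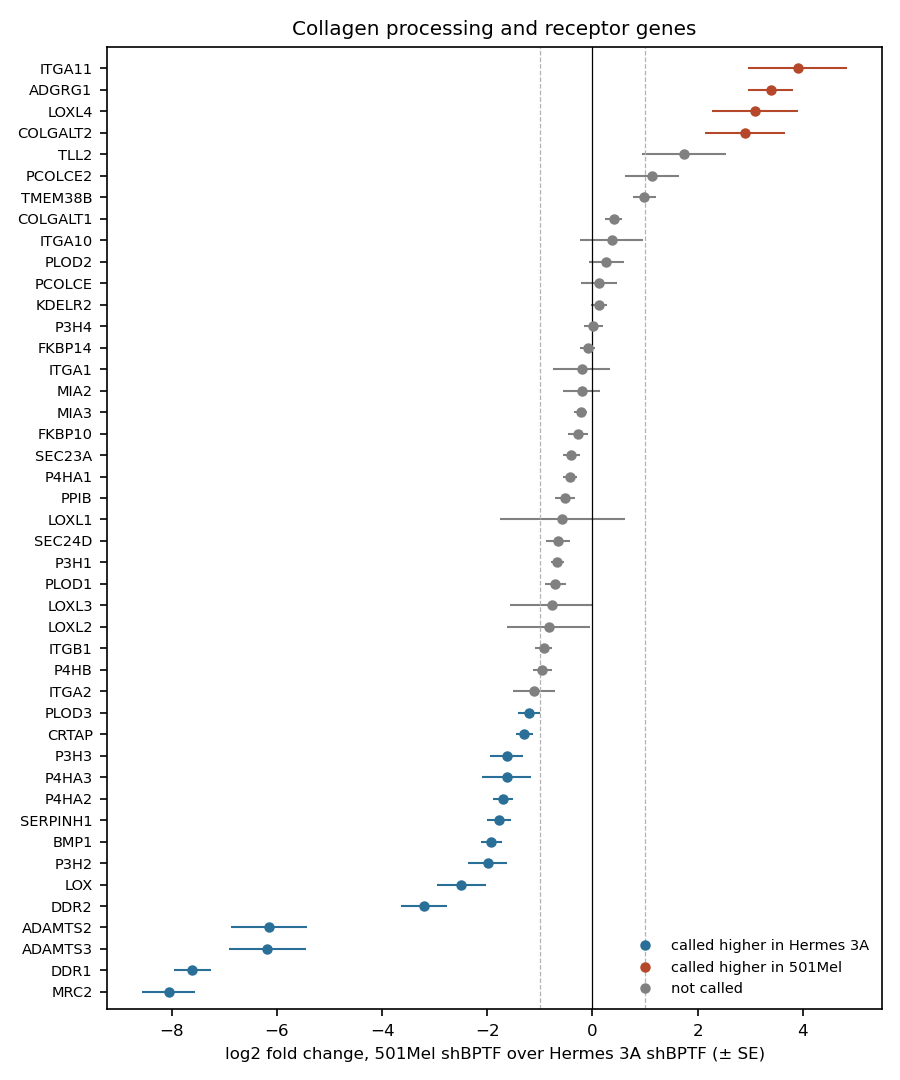
Log2 fold change of 501Mel shBPTF over Hermes 3A shBPTF for the tested collagen processing and receptor genes, with the standard error as a bar and the 2-fold limits as dashed lines. The values run from -8.06 for MRC2 to 3.90 for ITGA11.

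Collagen receptors on the cell surface also differed between the lines. Of 11 receptor genes 9 were tested, 2 were higher in 501Mel cells and 3 higher in Hermes 3A cells, or 55.6% called against the background of 36.1%, with a median log2 fold change of -0.93. DDR1, a receptor tyrosine kinase activated by collagen, was at 0.744 and 0.370 CPM in the 501Mel libraries and 123, 99.3 and 94.1 CPM in the Hermes 3A libraries. All Hermes 3A libraries lay above both 501Mel libraries (log2 fold change -7.61 ± 0.35 (SE), edgeR adjusted p = 2.35e-05). DDR2, its relative with a preference for fibrillar collagens, was at 3.69 and 7.18 CPM in 501Mel cells against 35.0, 38.5 and 70.3 CPM in Hermes 3A cells (log2 fold change -3.20 ± 0.44 (SE), edgeR adjusted p = 0.00127). MRC2, the endocytic receptor that takes up collagen for degradation, was at 0.0697 and 0.0264 CPM in 501Mel cells against 10.3, 15.4 and 14.6 CPM in Hermes 3A cells (log2 fold change -8.06 ± 0.50 (SE), edgeR adjusted p = 5.86e-05). Its 501Mel values rest on 3 and 1 counts, and this SE is smaller than their counting error. ADGRG1, an adhesion receptor that binds type III collagen, was higher in 501Mel cells at 170.4 and 225 CPM in 501Mel cells against 9.22, 30.2 and 15.6 CPM in Hermes 3A cells (log2 fold change 3.39 ± 0.43 (SE), edgeR adjusted p = 0.000891). ITGA11, an integrin chain for fibrillar collagens, was at 3.83 and 0.423 CPM in 501Mel cells against 0.192, 0.0979 and 0.0998 CPM in Hermes 3A cells (log2 fold change 3.90 ± 0.94 (SE), edgeR adjusted p = 0.0115), and its call was lost without 501Mel replicate 1. ITGB1, the partner chain of every collagen-binding integrin, was at 414 and 340.1 CPM in 501Mel cells against 634, 669 and 752 CPM in Hermes 3A cells and was under the 2-fold limit (-0.93 ± 0.17 (SE), edgeR adjusted p = 0.00373). It passed that limit at -1.06 without 501Mel replicate 1 and -1.01 without Hermes 3A replicate 2.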

How the data were processed

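RNA-seq libraries of 2 501Mel shBPTF and 3 Hermes 3A shBPTF replicates were analysed, grouped by their labels. Per the labels, total RNA was depleted of rRNA and the libraries were treated with a duplex-specific nuclease, which lowers abundant cDNAs, so that high levels may be compressed. The authors deposited raw read counts per Ensembl gene as whole numbers without normalization. The submitters' processing notes name CASAVA 1.8, Bowtie 0.12.7, TopHat 1.4.1 and hg19. The counting program, annotation and strand setting are not given in the sources used here, so that reads of genes that overlap on opposite strands cannot be told apart.

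The files of the lines list different genes, 37259 for 501Mel and 34033 for Hermes 3A, with 31029 in both. A gene absent from a line was entered as 0 in the fit. Such genes held 0.0938 to 0.712% of the counts of a library. Symbols, exon lengths and overlaps were taken from GENCODE 29 on GRCh38, which matched 34509 and 31707 of the identifiers. Promoter sequences are those of RefSeq (GRCh38.p14), and 250 bases upstream were searched on both strands.

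The lines were compared over all genes with edgeR 4.0.16 (TMM, filterByExpr, quasi-likelihood test) in R 4.3.3, and p-values were adjusted by Benjamini-Hochberg over the 18386 genes that passed the filter. Calls required an adjusted p under 0.05 together with a difference of at least 2-fold. The SE of a log2 fold change was derived from the fitted coefficient and the F statistic of the quasi-likelihood test. For a gene with few counts in a line it can be smaller than the counting error. CPM are counts scaled to a library total of 1000000, without TMM. DESeq2 1.42.0, other size factors, other filters, the replicate number as a block and fits without each library in turn were the alternatives. The scripts were tested on simulated data. Replicates were compared by a chi-square per gene, which was at least 21.5 for each pair, so that none was counted as a repeat. Confidence intervals are exact and cover counting error only.

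The members and gene lists were chosen with earlier results of these data known. Values were given for the 5 called collagens with the largest fold change in each direction, the 5 with the highest level per kb in each line, their trimer partners, the 5 called genes with the largest fold change among the processing and the receptor genes, and SERPINH1, P4HB and ITGB1. COL18A1, COL12A1, COL14A1, COL7A1 and other collagens with values in each library fell outside this rule and were given to account for each class. COL21A1 was not in the Hermes 3A tables used here and has no comparison.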

Additional observations from a re-analysis of the deposited data

How the results depend on the processing

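Of the counts of called genes, those of collagens higher in Hermes 3A cells (16) and of processing genes higher in Hermes 3A cells (11) stayed within 1.5 times under every alternative, at 12 to 18 and 11 to 16. Collagens higher in 501Mel cells, 7 as reported, numbered 13 with no filter on low counts, and 3 to 10 when a library was left out, with 3 without 501Mel replicate 1 and 4 without Hermes 3A replicate 3. When a library was left out, collagens higher in Hermes 3A cells numbered 12 to 17. Processing genes higher in 501Mel cells (2) then numbered 1 to 4, with 1 without 501Mel replicate 2 and 4 without Hermes 3A replicate 1. Receptors higher in 501Mel cells (2) numbered 1 to 2, with 1 without 501Mel replicate 1, and those higher in Hermes 3A cells (3) numbered 3 to 6, with 6 without 501Mel replicate 1 and 4 without Hermes 3A replicate 2. A fit without a 501Mel library assumes that the lone library varies like the others. The difference of COL27A1 reversed to -4.09 without 501Mel replicate 1, and was 1.38 and called without replicate 2. The cause of these changes was not tested. These are numbers of calls, and the called members changed as well. Without Hermes 3A replicate 1, 17 collagens were called higher in Hermes 3A cells, and 15 of them were among the 16 as reported. With DESeq2, 8 were called higher in 501Mel cells, and 6 of them were among the 7 as reported. Members also changed when a 501Mel library was left out.

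The lines share replicate numbers 1 and 2, and nothing in the labels pairs them. With the replicate block, only the 4 libraries with a shared number bear on the difference between the lines. Hermes 3A replicate 3 is alone in its block and adds nothing to that difference, so that little is left to estimate the spread. In this fit 6 collagens were called for 501Mel and 14 for Hermes 3A, with 2 and 11 processing genes and 2 and 4 receptors. With this block COL4A4, COL6A3, COL16A1 and COL20A1 were not called, at adjusted p of 0.0798, 0.124, 0.0568 and 0.0626 from edgeR, and COL6A2 was called at 0.0385. Deviations from the line means correlated at 0.0999 and 0.133 for the same number and at -0.0999 and -0.133 for different numbers among these. With 2 501Mel libraries their deviations are mirror images. The negative values therefore repeat the positive ones with the sign changed and are no separate observation. With 2 501Mel libraries the spread within that line is poorly known, and collagens with fewer than about 10 counts in a library have values limited by depth.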

Other observations

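COL21A1, a FACIT collagen, had 3 and 0 counts in the 501Mel libraries and no value for Hermes 3A cells. Of the other 7 collagens that were not tested, COL26A1 had the highest count, 30 in 501Mel replicate 1 and 7 in replicate 2, with 5, 2 and 1 counts in Hermes 3A cells.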
